A study of Mus musculus with 4 samples.

Results

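The genes described here were listed as markers of rare epithelial cells of the nose, microvillar cells (of the *Trpm5* or tuft type and of another type) and ionocytes. They were listed by name, with earlier results of these data known, and are 10 of the 24421 genes with a deposited value. The 7 microvillar genes are *Trpm5*, *Chat*, *Pou2f3*, *Avil*, *Il25*, *Gnat3*, and *Trpc6*, and the 3 ionocyte genes are *Ascl3*, *Cftr*, and *Foxi1*. *Trpc6* belongs to another type of microvillar cell than *Trpm5*, and whether the microvillar and ionocyte groups mark separate cells was not tested. RNA-seq was performed on FACS-sorted cells of the main olfactory epithelium (MOE) of mice that carry a transgene with an enhancer of the *Taar* (trace amine-associated receptor) gene cluster. The TAAR enhancer 1-GFP transgenic line gave the GFP-negative and GFP-positive libraries, and the TAAR enhancer 2-tdTomato transgenic line gave the tdTomato-negative and tdTomato-positive libraries. In both transgenes the enhancer stands before the mouse Hsp68 minimal promoter, and the mice used come from 1 founder line for each transgene. The labels give the strain as C57BL/6 and call the mice adult, whereas the Reporting Summary of the study gives mixed C57BL/6J and 129 backgrounds for its mouse lines, ages in the first weeks after birth, and both sexes, and whether animals were pooled is not given in the sources used here.

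Microvillar cells are epithelial cells with an apical brush of microvilli that lie among the olfactory sensory neurons (OSNs) and supporting cells of the MOE. Those of the *Trpm5* type resemble the tuft cells of gut and airway, depend on the transcription factor POU2F3, use a taste-like signalling cascade, and release acetylcholine and cytokines such as IL-25. Ionocytes are rare cells that depend on the forkhead factor FOXI1, carry ion channels and proton pumps, and are known for their high content of CFTR, the chloride channel mutated in cystic fibrosis. Neither cell type is an OSN, although *Trpm5* is also known from a subset of OSNs.

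Each of the 4 groups has 1 library, so no difference between single libraries has a replicate check, and no test was run. The lines carry different enhancers and reporters and were not treated as replicates. The order of neighbouring levels cannot be judged against a spread. Values are TPM (a share of all transcripts, scaled to a fixed total), which allow for transcript length and can be set side by side between genes. Every library has the same total, so the depth behind a value is unknown. Between 15096 and 16840 genes were above 0 TPM in a library, and 8, 9, 8, and 7 of the 10 genes were above 0 in the GFP-negative, GFP-positive, tdTomato-negative, and tdTomato-positive libraries. An exact 0 can be a failed estimate, since *Rpl26*, a ribosomal protein gene that every cell uses, was listed at 0 in all 4 libraries. The 10 highest genes of a library held 31.5% of the total in the GFP-positive library and 5.72% to 9.44% in the others, which lowers other TPM values in the GFP-positive library. Differences of single genes are given on the log2(TPM + 1) scale, which understates those of low genes. Because the samples are bulk RNA, fewer cells of a type and less RNA per cell cannot be told apart. A difference between the lines cannot be told apart from one between enhancers, reporters, founders, ages, or sorts. The Reporting Summary gives the lines different age ranges.

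The balance between the ionocyte and the microvillar genes was shifted towards the ionocyte genes in both reporter-positive libraries. The summed level of the 3 ionocyte genes was 29.1 TPM in the GFP-negative library, 234.5 TPM in the GFP-positive library, 193.1 TPM in the tdTomato-negative library, and 227.5 TPM in the tdTomato-positive library. The sum of the 7 microvillar genes was 37.2, 20.8, 109.1, and 16.8 TPM in the same order. The ionocyte sum therefore stood low in the GFP-negative library alone, while the microvillar sum stood high in the tdTomato-negative library. Within a library, the ratio of the ionocyte sum to the microvillar sum was 0.782 and 1.77 in the GFP-negative and tdTomato-negative libraries, against 11.3 and 13.6 in the GFP-positive and tdTomato-positive libraries. The ratio was 14.4-fold higher in the GFP-positive than in the GFP-negative library and 7.67-fold higher in the tdTomato-positive than in the tdTomato-negative library. The log2 change of the ratio was 3.85 and 2.94 in these lines, and it was 3.12 and 1.83 when mean log2(TPM + 1) values replaced the sums. In the GFP line it was 3.19 without *Ascl3* and *Pou2f3*, the genes of highest mean level. A ratio taken within a library does not depend on how the libraries are scaled to each other, and it was chosen after the values were seen. The difference came from different genes in the 2 lines. The ionocyte sum was 8.07-fold higher in GFP-positive cells but 1.18-fold higher in tdTomato-positive cells (without *Ascl3* its log2 ratio there turned from 0.24 to -0.16). The microvillar sum was 1.78-fold lower in GFP-positive and 6.51-fold lower in tdTomato-positive cells as deposited. In the GFP line its log2 ratio was -0.33 without the highest genes, 0.050 with median-ratio scaling, and 2.24 with mature OSN marker scaling.

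**Figure D1:**
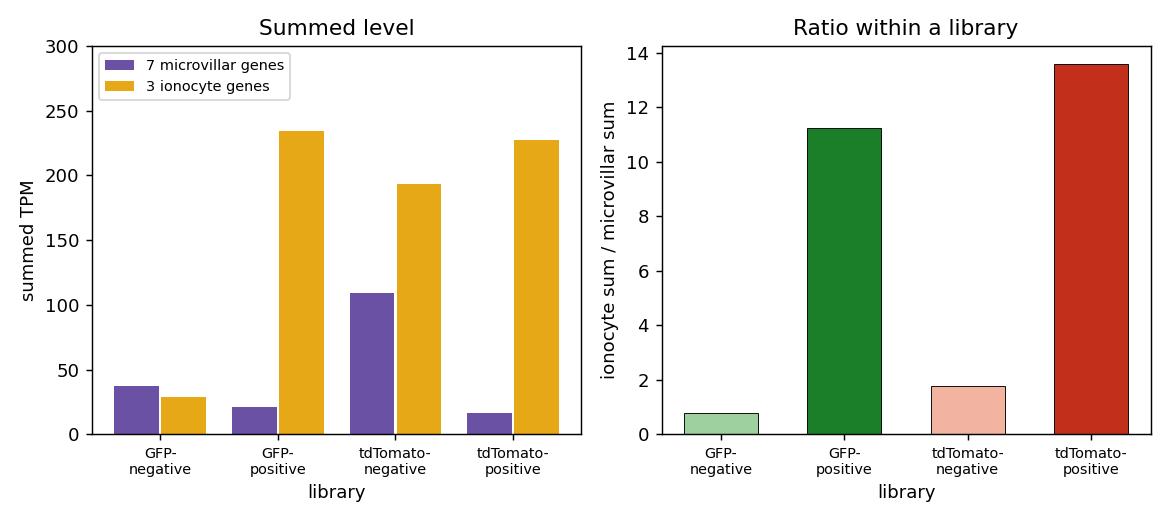
Left, summed TPM of the 7 microvillar and the 3 ionocyte genes in each library, and right, the ratio of the ionocyte sum to the microvillar sum in each library, with 1 library for each group and no error bars. The ratio is 0.782 and 1.77 in the reporter-negative libraries and 11.3 and 13.6 in the reporter-positive libraries.

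The direction of the microvillar sum in the GFP line depended on the scaling. Its log2 ratio, GFP-positive over GFP-negative, was -0.83 as deposited, 0.050 after the libraries were scaled by the median ratio over 11943 genes, -0.33 after the highest genes were removed, and 2.24 when the libraries were set to the same level of 12 mature OSN marker genes. The ionocyte sum was higher in GFP-positive cells under each of these scalings, with log2 ratios between 3.01 and 6.09. In the tdTomato line the microvillar sum was lower under each of them, with log2 ratios between -2.70 and -1.68. Mature OSN marker scaling presumes an equal level of OSN transcripts in each library. As deposited, the 12 markers summed to 27841 TPM in the GFP-negative and 3065 TPM in the GFP-positive library. This scaling raised every log2 ratio of sums by 3.08 in the GFP line and by 1.02 in the tdTomato line. A sign that turned under it follows from this common shift.

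The ionocyte genes are described first. *Ascl3* encodes a basic helix-loop-helix transcription factor found in ionocytes and in progenitors of secretory glands, and lies at chr7:109727465-109731726 on the minus strand (GRCm38, also called mm10). Its level was 21.2 TPM in the GFP-negative library, 182.6 TPM in the GFP-positive library, 144.5 TPM in the tdTomato-negative library, and 183.9 TPM in the tdTomato-positive library. *Ascl3* was the highest of the 10 genes in each library, and its level exceeded that of 49.8% of the genes above 0 TPM in the GFP-negative library and of 91.7% to 96.9% in the others. *Cftr* lies at chr6:18170687-18322768 on the plus strand. Its level was 1.01 TPM in the GFP-negative library, 20.4 TPM in the GFP-positive library, 15.4 TPM in the tdTomato-negative library, and 17.2 TPM in the tdTomato-positive library. *Foxi1*, the gene of the factor on which ionocytes depend, lies at chr11:34204338-34208089 on the minus strand. Its level was 6.84 TPM in the GFP-negative library, 31.6 TPM in the GFP-positive library, 33.2 TPM in the tdTomato-negative library, and 26.4 TPM in the tdTomato-positive library. As deposited, all 3 genes were therefore lowest in the GFP-negative library, and the other 3 libraries lay close together. With mature OSN marker scaling the log2 ratio of the ionocyte sum in the tdTomato line was 1.26 instead of 0.24. Exons of *Cftr* share 129 bases with *Gm15592* on the other strand, and whether the counting used strand is not given in the sources used here.

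In the GFP line the 3 ionocyte genes differed in the same direction. The difference between GFP-positive and GFP-negative cells, in log2(TPM + 1), was 3.05 for *Ascl3*, 3.41 for *Cftr*, and 2.05 for *Foxi1*. In TPM these are 8.61-fold, 20.3-fold, and 4.62-fold higher levels in GFP-positive cells. In the tdTomato line the same difference was 0.35 for *Ascl3*, 0.15 for *Cftr*, and -0.32 for *Foxi1*, and none reached 2-fold. With the libraries set to the same level of mature OSN markers, the *Foxi1* difference in the tdTomato line was 0.66 and those of *Ascl3* and *Cftr* were 1.36 and 1.08. The levels of the 3 genes relative to each other also varied. The ratio of *Ascl3* to *Foxi1* was between 3.10 and 6.96 over the 4 libraries, that of *Ascl3* to *Cftr* between 8.96 and 21.1, and that of *Foxi1* to *Cftr* between 1.54 and 6.81, a 4.43-fold range.

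The sequences before the starts of the 3 ionocyte genes are shown because these genes were low together in the same library. Each is the 250 bases before the RefSeq transcript start (GRCm38.p6), written 5′ to 3′ on the transcribed strand, with the letters TATAAA in capitals. The positions are chr7:109731733-109731982 (minus strand) for *Ascl3*, chr6:18170437-18170686 (plus strand) for *Cftr*, and chr11:34208090-34208339 (minus strand) for *Foxi1*.
Ascl3: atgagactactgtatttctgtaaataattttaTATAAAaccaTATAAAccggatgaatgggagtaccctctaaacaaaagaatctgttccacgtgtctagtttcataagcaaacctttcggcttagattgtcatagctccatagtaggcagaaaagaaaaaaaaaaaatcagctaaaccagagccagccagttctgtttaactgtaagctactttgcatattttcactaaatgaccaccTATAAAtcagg
Cftr: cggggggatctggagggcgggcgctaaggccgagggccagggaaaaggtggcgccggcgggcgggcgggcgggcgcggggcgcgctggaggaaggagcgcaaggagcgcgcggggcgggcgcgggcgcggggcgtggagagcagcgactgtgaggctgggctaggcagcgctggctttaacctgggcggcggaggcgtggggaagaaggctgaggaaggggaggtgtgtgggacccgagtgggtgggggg
Foxi1: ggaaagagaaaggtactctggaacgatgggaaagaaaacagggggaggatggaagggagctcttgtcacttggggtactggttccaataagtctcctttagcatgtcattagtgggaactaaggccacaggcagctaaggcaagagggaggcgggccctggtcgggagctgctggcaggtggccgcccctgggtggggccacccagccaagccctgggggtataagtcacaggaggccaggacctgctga
The promoter sequences differ in composition. In windows of 300 bases, 250 before and 50 after the start, 36.0% of the bases were G or C for *Ascl3*, 71.3% for *Cftr*, and 60.3% for *Foxi1*, against a median of 52.7% over 32851 RefSeq windows. The *Ascl3* window holds 3 CG pairs, that of *Cftr* 31, and that of *Foxi1* 6, with a median of 7 over all windows. *Ascl3* has 3 matches to TATAAA on the transcribed strand, the last starting 11 bases before the transcript start, and *Cftr* and *Foxi1* have none. Of all windows, 8.32% hold this sequence, which was searched after the promoters had been seen. The forkhead sequence TGTTTAC was searched on both strands and is in none of the 8 windows found for the 10 genes and in 3.65% of all windows. The octamer ATGCAAAT, which POU factors bind, is likewise in none of the 8 on either strand and in 1.74% of all. A match or its absence describes only these letters in this window.

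Of the microvillar genes, *Pou2f3* (chr9:43123939-43210369, minus strand) encodes the transcription factor on which tuft cells depend. Its level was 13.3 TPM in the GFP-negative library, 3.53 TPM in the GFP-positive library, 24.2 TPM in the tdTomato-negative library, and 8.27 TPM in the tdTomato-positive library. *Pou2f3* was thus lower in the reporter-positive library of each line as deposited, by 3.76-fold and 2.92-fold in TPM. On the log2(TPM + 1) scale the *Pou2f3* differences were -1.66 in the GFP line and -1.44 in the tdTomato line. They were -0.91 and -1.28 with median-ratio scaling, -1.26 and -1.40 without the highest genes, and 1.06 and -0.47 with mature OSN marker scaling. *Il25* (chr14:54932695-54935837, plus strand) encodes the cytokine by which tuft cells alert innate lymphoid cells. Its level was 10.1 TPM in the GFP-negative library, 2.82 TPM in the GFP-positive library, 29.8 TPM in the tdTomato-negative library, and 3.28 TPM in the tdTomato-positive library. As deposited, *Il25* was lower in the reporter-positive cells by 3.59-fold in the GFP line and by 9.07-fold in the tdTomato line. The log2(TPM + 1) differences of *Il25* were -1.54 and -2.84. They were -0.82 and -2.66 with median-ratio scaling, -1.16 and -2.82 without the highest genes, and 1.09 and -1.86 with mature OSN marker scaling. *Il25* and *Pou2f3* ranked the tdTomato-negative library highest and the GFP-negative library next.

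*Trpm5* and *Avil* differed in the tdTomato line and hardly in the GFP line. *Trpm5* (chr7:143069153-143094642, minus strand) encodes the calcium-activated cation channel at the end of the taste-like cascade. Its level was 5.94 TPM in the GFP-negative library, 5.43 TPM in the GFP-positive library, 35.5 TPM in the tdTomato-negative library, and 0.620 TPM in the tdTomato-positive library. The level in tdTomato-positive cells was 57.2-fold lower than in tdTomato-negative cells, and the log2(TPM + 1) difference was -4.49. *Avil* (chr10:127000709-127020994, plus strand) encodes advillin, an actin-binding protein of the villin family that peripheral sensory neurons also express. Its level was 7.26 TPM in the GFP-negative library, 6.67 TPM in the GFP-positive library, and 17.0 TPM in the tdTomato-negative library, and it was listed at 0 in the tdTomato-positive library. Both genes differed by -0.11 on the log2(TPM + 1) scale in the GFP line as deposited, by 0.65 for *Trpm5* and 0.68 for *Avil* with median-ratio scaling, and by 2.60 and 2.66 with mature OSN marker scaling. Exons of *Trpm5* share 220 bases with *Tssc4*, and exons of *Avil* share 165 bases with *Tsfm*, each on the other strand. *Tssc4* was between 37.3 and 78.4 TPM and *Tsfm* between 16.3 and 28.2 TPM over the libraries, and their part in the values of *Trpm5* and *Avil* was not tested. The highest *Tssc4* level was also in the tdTomato-negative library, whereas *Tsfm* was highest in the tdTomato-positive library. Of 4 markers of peripheral sensory neurons, *Trpv1* was listed at 0 in every library, and the summed level of the 4 was between 17.9 and 35.1 TPM.

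The remaining microvillar genes were low. *Chat* (chr14:32408203-32465989, minus strand), which encodes the enzyme that makes acetylcholine, was at 0.567 TPM in the GFP-negative library, 0.401 TPM in the GFP-positive library, and 2.73 TPM in the tdTomato-negative library, and was listed at 0 in the tdTomato-positive library. *Gnat3* (chr5:17962549-18019834, plus strand) encodes gustducin, the G protein subunit that couples taste receptors. It was listed at 0 in the GFP-negative and tdTomato-negative libraries and was at 1.99 TPM in the GFP-positive library and 4.58 TPM in the tdTomato-positive library. *Gnat3* was therefore the one microvillar gene above 0 in the reporter-positive and not in the reporter-negative libraries. *Trpc6* (chr9:8544142-8680741, plus strand), which encodes a cation channel of another type of microvillar cell, was listed at 0 in all 4 libraries.

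**Figure D2:**
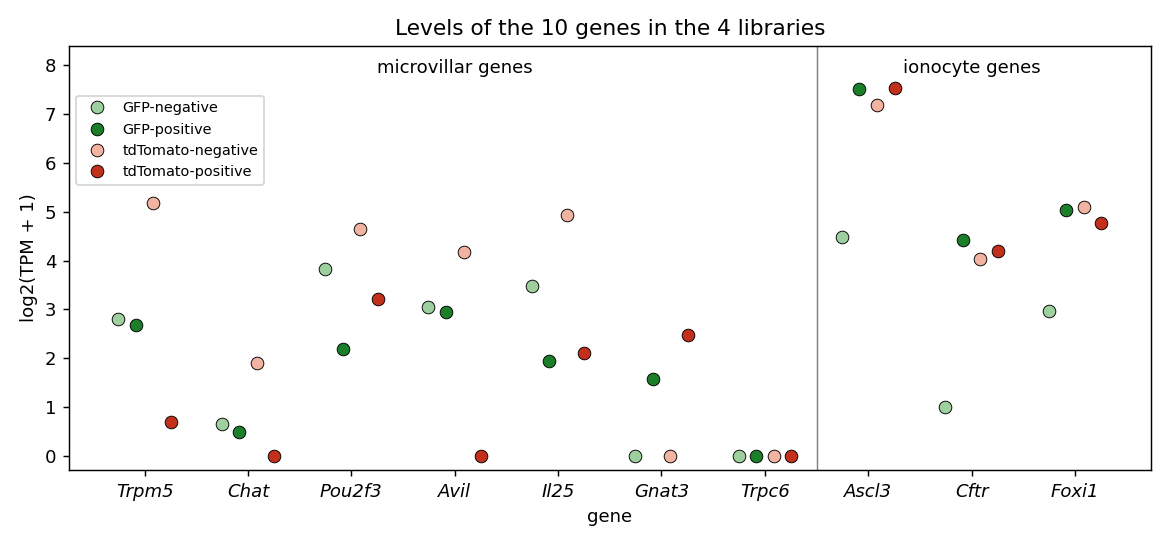
Level of each of the 10 genes, as log2(TPM + 1), in the GFP-negative, GFP-positive, tdTomato-negative, and tdTomato-positive libraries, with 1 point for each library. *Ascl3*, *Cftr*, and *Foxi1* are lowest in the GFP-negative library, and *Trpm5*, *Chat*, *Pou2f3*, *Avil*, and *Il25* are highest in the tdTomato-negative library.

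The microvillar genes did not keep a constant relation to each other. The TPM ratio of *Pou2f3* to *Trpm5* was 2.23 in the GFP-negative library, 0.650 in the GFP-positive library, 0.681 in the tdTomato-negative library, and 13.3 in the tdTomato-positive library, a 20.5-fold range. The ratio of *Il25* to *Pou2f3* was between 0.397 and 1.23. The library with the extreme *Pou2f3* to *Trpm5* ratio is the one in which *Trpm5* was at 0.620 TPM and *Avil* and *Chat* were listed at 0.

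Counted over all 10 genes, 9 were above 0 TPM in at least 1 library of the GFP line, and 4 of these (*Ascl3*, *Cftr*, *Foxi1*, and *Gnat3*) were at least 2-fold higher in GFP-positive cells on the log2(TPM + 1) scale. Over all genes above 0, 12.8% were at least 2-fold higher. *Gnat3* was listed at 0 in the GFP-negative library, and among the 8 genes above 0 in both libraries 3 were higher and 2 lower. The 2 genes at least 2-fold lower were *Pou2f3* and *Il25*, against 40.5% of all genes. The median difference of the 9 genes was -0.11, beside -0.74 over all 17963 genes above 0 in the GFP line. With median-ratio scaling 4 were higher and 0 lower, and with mature OSN marker scaling 9 were higher and 0 lower. Over all genes, the split moved from 2291 higher and 7283 lower as deposited to 3668 and 3514 with median-ratio scaling and to 13229 and 1255 with mature OSN marker scaling. The *Ascl3*, *Cftr*, and *Foxi1* differences were above the median of all genes under each scaling.

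In the tdTomato line 9 of the 10 genes were also above 0 in at least 1 library. *Gnat3* alone was at least 2-fold higher in tdTomato-positive cells, against 16.2% of all genes. The 5 genes at least 2-fold lower were *Trpm5*, *Chat*, *Pou2f3*, *Avil*, and *Il25*, against 21.9% of all genes. The median difference of the 9 genes was -1.44, beside -0.19 over all 16752 genes above 0 in this line. Among the 6 genes above 0 in both libraries of the line, 3 were at least 2-fold lower and 0 higher. With mature OSN marker scaling 3 of the 9 genes were higher and 4 lower, beside 5911 higher and 1991 lower over all genes.

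**Figure D3:**
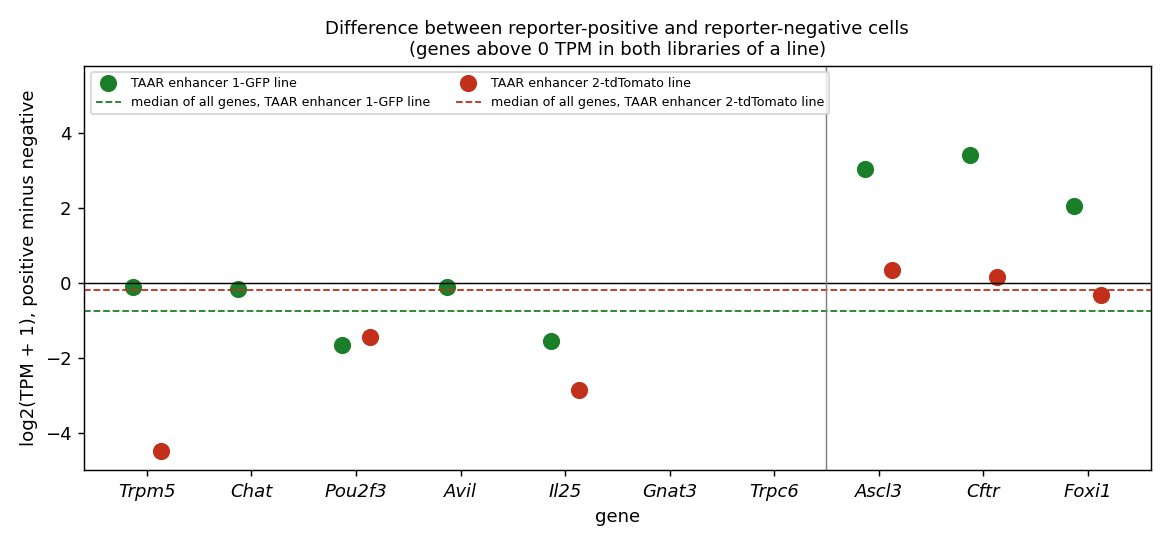
Difference between reporter-positive and reporter-negative cells, in log2(TPM + 1) as deposited, for the genes above 0 TPM in both libraries of a line, with dashed lines at the median of all genes in each line (-0.74 and -0.19). The ionocyte genes lie between 2.05 and 3.41 in the GFP line and between -0.32 and 0.35 in the tdTomato line, and *Trpm5* lies at -0.11 and -4.49. With mature OSN marker scaling the GFP line values of *Trpm5*, *Chat*, *Pou2f3*, *Avil*, and *Il25* and the tdTomato line value of *Foxi1* are above 0.

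The reporter-negative libraries of the lines differed for most of these genes. Of the 8 genes above 0, 7 were at least 2-fold higher in tdTomato-negative than in GFP-negative cells, against 10.6% of all genes, and 0 were lower, against 11.5%. The exception was *Pou2f3*, with a difference of 0.82. The differences of the others were between 1.12 for *Avil* and 3.03 for *Cftr*, beside a median of 0.03 over all genes. Between the reporter-positive libraries 1 of the 9 genes above 0 (*Pou2f3*) was at least 2-fold higher in tdTomato-positive cells, against 30.5% of all genes, and 2 (*Trpm5* and *Avil*) were lower, against 10.2%. The ionocyte differences (tdTomato-positive minus GFP-positive) were 0.01 for *Ascl3*, -0.23 for *Cftr*, and -0.25 for *Foxi1*, all below the median of 0.55 over all genes, while *Trpm5* was 8.76-fold lower in TPM in tdTomato-positive cells. These comparisons rest on the same 4 libraries as those within the lines and add no independent sample.

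Further genes of the pathways were taken from lists of tuft cell and ionocyte genes. In the GFP line, 13 of the 18 further ionocyte genes above 0 were at least 2-fold higher and 0 lower, with a median of 2.00, beside 12.8% higher, 40.5% lower, and a median of -0.74 over all genes. Of the 13, *Asgr1* was listed at 0 in the GFP-negative library and was at 13.9 TPM in the GFP-positive library. In the tdTomato line 4 of the 18 were higher and 2 lower, with a median of -0.10, beside 16.2% higher, 21.9% lower, and a median of -0.19 over all genes. With mature OSN marker scaling 18 were higher and 0 lower in the GFP line, beside 13229 and 1255 over all genes, and 7 were higher and 0 lower in the tdTomato line, beside 5911 and 1991. The lists were named with results of these libraries in view and are not independent evidence.

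The ionocyte gene of highest level was *Coch*, which encodes the secreted protein cochlin. Its level was 112.4 TPM in the GFP-negative library, 372.4 TPM in the GFP-positive library, 555.7 TPM in the tdTomato-negative library, and 378.7 TPM in the tdTomato-positive library. *Coch* was thus lowest in the GFP-negative library, as *Ascl3* was. Unlike *Ascl3*, *Coch* was highest in the tdTomato-negative library and lower in tdTomato-positive cells. The ratio of *Coch* to *Ascl3* was between 2.04 and 5.30. *Stap1*, which encodes a signal-transducing adaptor, was at 46.1, 76.4, 104.6, and 60.0 TPM in the same order. *Moxd1*, a gene of the copper monooxygenase family, was at 9.30, 28.4, 47.8, and 24.2 TPM. Both *Stap1* and *Moxd1* were, like *Coch*, highest in the tdTomato-negative library. *Kcnj16*, which encodes an inward rectifier potassium channel of ion-transporting epithelia, went with the reporter in both lines. It was at 2.54 and 124.7 TPM in the GFP-negative and GFP-positive libraries and at 6.94 and 82.5 TPM in the tdTomato-negative and tdTomato-positive libraries. Its ratio to *Ascl3* varied 14.2-fold over the libraries. The other genes of these lists at least 2-fold higher in tdTomato-positive cells were *Asgr1*, *Tfcp2l1*, and *Atp6v1c2*, and *Atp6v0d2* was lower (19.8 and 7.15 TPM in tdTomato-negative and tdTomato-positive cells). *Asgr1*, *Tfcp2l1*, and *Atp6v0d2* are named because of their values.

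The proton pump (V-ATPase) subunits of acid-secreting cells went with the ionocyte genes in the GFP line. *Atp6v1c2* was at 14.1 TPM in the GFP-negative library, 91.0 TPM in the GFP-positive library, 27.9 TPM in the tdTomato-negative library, and 181.2 TPM in the tdTomato-positive library. *Atp6v1b1*, the subunit known from kidney intercalated cells, was at 20.2, 71.6, 32.4, and 61.8 TPM, and *Atp6v0a4* at 3.79, 23.4, 8.73, and 11.6 TPM. Of the 5 subunits of this list, 4 were at least 2-fold higher in GFP-positive cells and 0 lower, with a median of 2.35, against 12.8% higher and 40.5% lower over all genes. In the tdTomato line 1 of the 5 was higher and 1 lower, against 16.2% and 21.9%, and with mature OSN marker scaling 3 were higher and 0 lower. The 6 subunits found in all cells had a median of -1.04 in the GFP line, where 0 were higher and 4 lower, and all 6 were within 2-fold in the tdTomato line. Their highest members, *Atp6v1e1*, *Atp6v0d1*, and *Atp6v1a*, were between 99.9 and 333.0 TPM. Under mature OSN marker scaling the 6 subunits had medians of 2.01 and 0.70.

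The further microvillar genes went in both directions, and the shares of all genes are those given for the ionocyte lists (12.8% higher and 40.5% lower in the GFP line, 16.2% and 21.9% in the tdTomato line). Of the 26 above 0 in the GFP line, 9 were at least 2-fold higher and 9 lower, with a median of -0.23. Of the 26 in the tdTomato line, 9 were higher and 11 lower, with a median of -0.38. Some calls rest on an exact 0 in a library. These were *Gnb3* and *Hmx2*, higher in the GFP line, and *Hmx2*, *Bmx*, and *Npy*, higher in the tdTomato line. *Tas1r3*, *Tas2r108*, *Gfi1b*, and *Slc18a3* were lower in the tdTomato line with a 0 in the tdTomato-positive library. With mature OSN marker scaling the counts were 17 higher and 2 lower in the GFP line, beside 13229 and 1255 over all genes, and 10 higher and 7 lower in the tdTomato line, beside 5911 and 1991. Of 13 genes of taste-type signalling, 6 were listed at 0 in all 4 libraries, among them the sweet and umami receptor genes *Tas1r1* and *Tas1r2*. *Plcb2*, which encodes the phospholipase of taste signalling, was at 19.9 TPM in the GFP-negative library, 0.643 TPM in the GFP-positive library, 13.6 TPM in the tdTomato-negative library, and 0.930 TPM in the tdTomato-positive library. The bitter receptor gene *Tas2r108* was at 6.65, 0.522, and 11.9 TPM in the first 3 of these and was listed at 0 in the tdTomato-positive library. *Itpr3*, the gene of the calcium channel that acts after PLCB2, was between 11.8 and 20.5 TPM. *Gng13*, a G protein subunit gene of taste cells that is also a mature OSN marker, was at 2885, 362.4, 2499, and 1207 TPM.

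Of 10 genes of tuft cell identity and structure with a value, 4 were at least 2-fold higher and 3 lower in each line as deposited, and 9 were higher and 1 lower in the GFP line with mature OSN marker scaling. Of the calls as deposited, *Hmx2* in each line and *Bmx* and *Gfi1b* in the tdTomato line rest on a 0 in a library. *Spib*, a transcription factor gene, was at 73.0 TPM in the GFP-negative library, 3.41 TPM in the GFP-positive library, 28.3 TPM in the tdTomato-negative library, and 2.21 TPM in the tdTomato-positive library. The transcription factor gene *Sox9*, which is also expressed in Bowman gland cells, was at 1.02, 18.0, 1.78, and 27.5 TPM. *Krt18*, a keratin gene of simple epithelia, was at 69.7, 768.9, 197.0, and 470.2 TPM. These went in opposite directions, as *Spib* was lower and *Sox9* and *Krt18* were higher in both reporter-positive libraries. *Bmx*, which encodes a tyrosine kinase, was at 2.59, 13.8, and 26.5 TPM in the GFP-negative, GFP-positive, and tdTomato-positive libraries and was listed at 0 in the tdTomato-negative library.

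The genes of leukotriene and prostaglandin synthesis, lipid mediators that tuft cells release, also diverged. *Alox5ap*, which encodes the activating protein of 5-lipoxygenase, was at 197.6 TPM in the GFP-negative library, 16.0 TPM in the GFP-positive library, 152.1 TPM in the tdTomato-negative library, and 0.175 TPM in the tdTomato-positive library. The lipoxygenase gene *Alox5* was at 26.9, 3.91, 18.4, and 3.55 TPM, and the leukotriene C4 synthase gene *Ltc4s* at 13.2, 2.84, 34.2, and 15.9 TPM. *Pla2g4a*, the gene of the phospholipase that frees arachidonic acid, was at 8.54, 41.2, 1.93, and 123.5 TPM, and the prostaglandin D synthase gene *Hpgds* at 7.42, 22.2, 5.56, and 36.6 TPM. The leukotriene genes were thus lower, and *Pla2g4a* and *Hpgds* higher, in both reporter-positive libraries as deposited, whereas with mature OSN marker scaling the GFP line difference in log2(TPM + 1) was 0.27 for *Alox5* and 0.78 for *Ltc4s*. Of the acetylcholine genes, *Ache*, which encodes the enzyme that breaks it down, was at 8.02, 21.7, 3.28, and 23.4 TPM, while the vesicular transporter gene *Slc18a3* was above 0 in the tdTomato-negative library alone (1.13 TPM) and the choline transporter gene *Slc5a7* in the GFP-negative library alone (0.335 TPM). Of the genes of the *Trpc6* type of microvillar cell, *Nt5e* was between 8.96 and 49.6 TPM, and *Npy*, which encodes neuropeptide Y, was listed at 0 in all but the tdTomato-positive library (21.4 TPM).

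**Figure D4:**
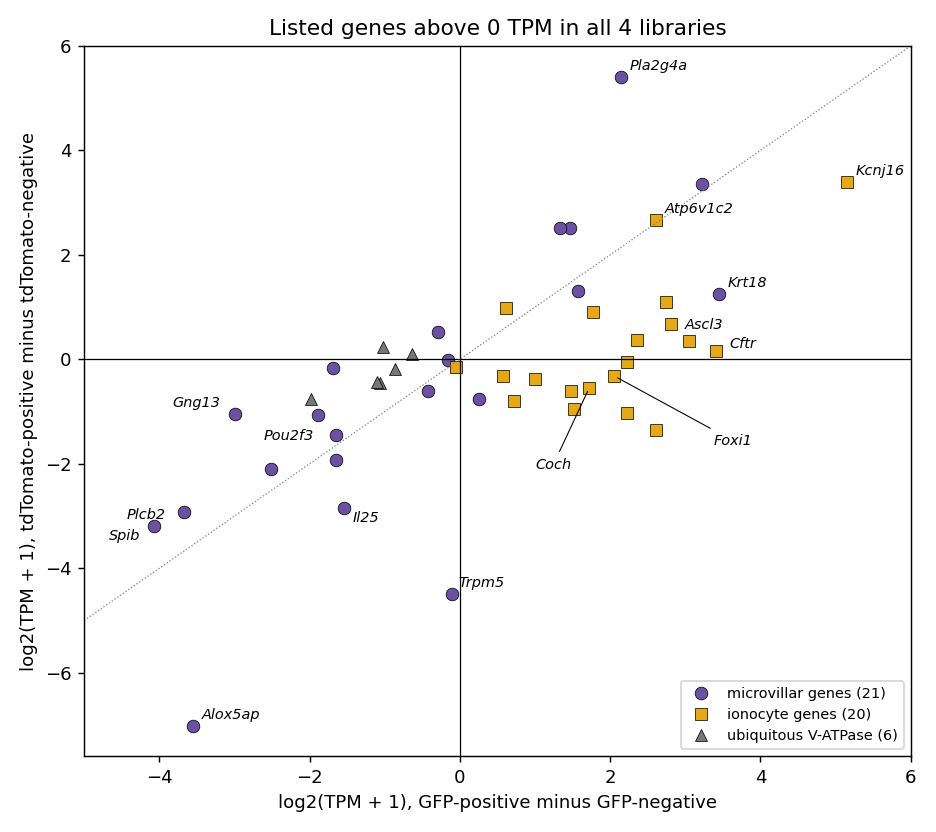
Difference in log2(TPM + 1) between reporter-positive and reporter-negative cells as deposited, GFP line on the x axis and tdTomato line on the y axis, for the 47 listed genes above 0 TPM in all 4 libraries (21 microvillar, 20 ionocyte, and 6 ubiquitous V-ATPase genes). The dotted line marks equal differences, and most ionocyte genes lie to the right of 0 and near 0 on the y axis. With mature OSN marker scaling all points move to the right and up.

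Markers of other cell types also differed between the libraries, and their part in the values above was not tested. The counts below stand against 12.8% of all genes higher and 40.5% lower in the GFP line and 16.2% and 21.9% in the tdTomato line. The summed level of 6 lymphocyte and macrophage markers was 739.0, 31.9, 413.2, and 30.3 TPM in the GFP-negative, GFP-positive, tdTomato-negative, and tdTomato-positive libraries, and 6 of 6 were at least 2-fold lower in the reporter-positive library of each line. The sum of 6 neutrophil and mast cell markers was 8122, 56.8, 1807, and 3.40 TPM, where of the mast cell genes *Tpsb2* and *Mcpt4* were listed at 0 in every library and *Cpa3* was at 8.41 TPM in the GFP-negative library and listed at 0 in the others. Leukocytes also express *Plcb2*, *Spib*, *Alox5*, and *Alox5ap*, which were lower in the same libraries. The 7 sustentacular (supporting) cell markers summed to 1006, 9556, 1720, and 9373 TPM, with 7 of 7 at least 2-fold higher in GFP-positive cells but 2 higher and 2 lower in tdTomato-positive cells. The 5 Bowman gland markers summed to 3555, 110254, 300.9, and 1929 TPM, with 5 of 5 at least 2-fold higher in GFP-positive cells and 4 higher and 1 lower in tdTomato-positive cells. The 6 multiciliated cell markers summed to 582.9, 2410, 518.4, and 7764 TPM. Like the ionocyte sum, the supporting cell sum was low in the GFP-negative library, but unlike it the sum was also low in the tdTomato-negative library. The 5 horizontal basal cell markers, at 63.0, 629.2, 151.6, and 29.1 TPM, were higher in GFP-positive and lower in tdTomato-positive cells. With mature OSN marker scaling 3 of the 6 lymphocyte and macrophage markers were at least 2-fold lower in the GFP line. The same scaling gave 5 of the 7 supporting cell markers higher and 0 lower, and 3 of the 5 horizontal basal cell markers lower, in the tdTomato line. The 12 mature OSN markers summed to 27841, 3065, 28641, and 12861 TPM, so that OSN transcripts were present in each library and lowest in the GFP-positive one.

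The genes with a pattern most like the ionocyte genes were sought among 14504 genes of at least 5 TPM in a library and outside the lists. Likeness was the Euclidean distance over the 4 libraries between log2(TPM + 1) values after the mean of each gene was removed. The nearest gene to the mean of the 3 ionocyte genes was *Gm933*, at a distance of 0.139, with 14.8 TPM in the GFP-negative library, 98.2 TPM in the GFP-positive library, 86.6 TPM in the tdTomato-negative library, and 91.9 TPM in the tdTomato-positive library. *Sult2b1*, *Sdc4*, *Tcf7l2*, and *Espn* followed at distances of 0.283 to 0.424. Nearest to the mean of the 6 microvillar genes above 0 was *Sh2d7*, at a distance of 0.088, with 4.08, 3.31, 10.7, and 1.95 TPM in the same order. *Vcpkmt*, *A430005L14Rik*, *Gorab*, and *Hs3st6* followed at 0.133 to 0.185. The likeness rests on 4 libraries and is a description only.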

How the data were processed

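RNA was sequenced from FACS-sorted MOE cells, with 1 library for each of 4 groups. The authors deposited a TPM value for each of 24421 gene symbols. The submitters' processing notes name Trimmomatic 0.36, Salmon 1.4.0, and mm10, whereas the methods of the study name Hisat2 and Cufflinks and another library procedure than the labels do. The gene annotation, any filter, and the use of strand are not given in the sources used here. Groups were taken from the sample titles.

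TPM values were used as deposited, with a pseudocount of 1 on the log2 scale for single genes and none for sums. A 2-fold difference was used for counts, over genes above 0 TPM in either library. The 10 genes, the further lists, and the alternatives were chosen with earlier results of these data known. From each further list the genes named are those with the highest TPM in any library (up to 4 for the taste, eicosanoid, and ionocyte lists and 3 for the others) and those at least 4-fold different in both lines. Other names are said to be chosen by their values. Alternatives were 3 scalings (median ratio over 11943 genes, removal of 24 highest genes, equal mean log2 of 12 mature OSN markers), pseudocounts of 0.1 and 10, a minimum of 1 TPM, a 4-fold difference, and sums without the highest gene.

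Gene positions are from GENCODE M21 (GRCm38), and promoter windows from RefSeq (GRCm38.p6), which held 8 of the 10 genes. Between 0% and 3.79% of the 50-base windows of a gene's transcripts also occur in another gene. Python 3.11.15, NumPy 2.4.6, pandas 2.3.3, and Matplotlib 3.10.9 were used, and the calculation was tested on simulated data.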

Additional observations from a re-analysis of the deposited data

Results flagged for a closer look

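*Foxi1* went in opposite directions in the lines, with a log2(TPM + 1) difference of 2.05 in the GFP line and -0.32 in the tdTomato line, and the value of the tdTomato line minus that of the GFP line was -2.38. The difference was not tested, as each group has 1 library. With the libraries set to the same level of mature OSN markers the difference in the tdTomato line was 0.66, and the directions were no longer opposite.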

How the results depend on the processing

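No paired analysis was run and nothing was tested. A group holds a single library, and the lines carry different enhancers and reporters, so they were not treated as replicate pairs. In the GFP line the microvillar sum (log2 ratio -0.83) was 0.050 with median-ratio scaling and 2.24 with mature OSN marker scaling, the ionocyte sum (3.01) was 3.90 and 6.09, and the median of the genes (-0.11) was 0.68 and 2.66. The median was 0.74 over genes of at least 1 TPM. The genes higher in GFP-positive cells (4) were 9 with mature OSN marker scaling. Those lower (2) were 0 with either scaling, with a pseudocount of 10, and at 4-fold. Mature OSN marker scaling turned *Pou2f3* to 1.06 and *Il25* to 1.09, whereas median-ratio scaling left them at -0.91 and -0.82. In the tdTomato line mature OSN marker scaling gave -1.68 for the microvillar sum (-2.70), 1.26 for the ionocyte sum (0.24), -0.47 for the median (-1.44), and 3 genes higher (1). Without *Pou2f3*, the microvillar gene with the highest mean over the 4 libraries, the microvillar sum was -3.32, and without *Ascl3* the ionocyte sum turned to -0.16. A pseudocount of 10 gave a median of -0.35, 0 genes higher, and 3 lower (5), and 3 were lower at 4-fold. These shifts follow from the common scaling, the pseudocount, the fold, or the genes left out. The log2 change of the ionocyte to microvillar ratio was 3.85 in the GFP line and 2.94 in the tdTomato line. Alternatives added after the data were seen gave, in the GFP line, 3.19 without the highest genes of both sums and 3.12 from mean log2 values, which in the tdTomato line gave 1.83, and the cause was not tested. Of 14 single-gene differences, 7 moved by over 1.5-fold with median-ratio scaling, 14 with mature OSN marker scaling (of which 6 changed sign, *Pou2f3*, *Il25*, *Trpm5*, *Chat*, and *Avil* in the GFP line and *Foxi1* in the tdTomato line), 6 with a pseudocount of 10, 2 with a pseudocount of 0.1, and 0 after the highest genes were removed. The remaining values for sums, medians, counts, and ratios stayed within 1.5-fold. Depth is unknown, so counting error could not be given for any value.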
